A study of Mus musculus with 4 samples.

Results

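The genes described here are a set of 7 known from Schwann cells and their myelin: Mbp, Pmp22, S100b, Mal, Prx, Ncam1 and Ngfr. A gene was followed where GEO's platform annotation listed a probe set with that gene alone. By that rule 6 of the 7 genes had values, out of 18194 genes with such a probe set, and Prx, the periaxin gene, is not analysed here. The microarray data come from whole dorsal skin of male C57B6 mice at postnatal day 59 (P59, 2 arrays) and postnatal day 54 (P54, 2 arrays), the late and the middle time of adult telogen, when hair follicles rest. The labels name no transgene, mutation or drug and call the samples biological replicates, without saying whether animals were pooled. P-values therefore measure the spread between these samples. Deposited intensity values were taken to log2, so that 1 unit is a doubling of signal.

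Schwann cells are the glia of peripheral nerves. Myelinating Schwann cells wrap single large axons in a compacted membrane held together by proteins such as MBP and PMP22, whereas non-myelinating Schwann cells ensheath bundles of thin axons and keep NCAM1 and the p75 neurotrophin receptor, the product of Ngfr. In skin these cells accompany the sensory and sympathetic fibres of the dermis and of the hair follicle. Most of the 7 genes are also used elsewhere: Pmp22 in fibroblasts and epithelia, S100b in melanocytes and adipocytes, Mal in epithelia, Ncam1 in muscle and in the dermal papilla. The nerve cell bodies lie in ganglia outside the skin.

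Beside values from whole skin, Pmp22 is a gene for which the start of transcription matters, because its alternative promoters are known to differ in their use by Schwann cells and other tissues. It was read by 1 probe set here, so a level is the sum over its starts. From the RefSeq promoter table (GRCm38.p6) 8 windows for 5 of the 7 genes were used, 4 of them for Pmp22. Not every chromosome was searched, and windows of Mbp and Ncam1 were not examined. The 120 bases before the first and second Pmp22 starts, chr11:63128862-63128981 and chr11:63131337-63131456 on the plus strand, are shown 5′ to 3′ to set the upstream start beside the next one. The same stretch of Ngfr, chr11:95587699-95587818 on the minus strand, is shown because Ngfr had a lower mean at P59 and its window held the most GC boxes of the 8. The window was thus picked partly by its count, and a link between GC boxes and level was not tested. Capitals mark the GC box GGGCGG on either strand, and overlapping matches run together.
Pmp22 start 1: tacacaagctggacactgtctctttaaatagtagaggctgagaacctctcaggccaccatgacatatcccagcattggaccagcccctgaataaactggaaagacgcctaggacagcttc
Pmp22 start 2: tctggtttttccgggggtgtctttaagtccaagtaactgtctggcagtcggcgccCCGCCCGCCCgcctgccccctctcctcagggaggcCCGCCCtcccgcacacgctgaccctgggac
Ngfr start 1: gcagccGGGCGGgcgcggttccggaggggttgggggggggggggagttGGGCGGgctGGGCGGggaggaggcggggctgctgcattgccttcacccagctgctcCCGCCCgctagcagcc

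The first Pmp22 window held 0 GC boxes at 49.2% G and C, the second held 3 at 68.3%, and the Ngfr window held 4 at 78.3%. Of 32851 RefSeq windows of this length 26.5% held a GC box. The TATA box TATAAA (in 6.3% of windows) and the SOX core ACAAAG (in 7.8%), searched on both strands, were in 0 of these 3 windows. These matches describe the letters of the windows alone.

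None of the 5 genes that could be tested differed between P59 and P54 past the adjusted threshold. Mbp, which encodes myelin basic protein, had the largest difference of the 5, at 0.69 times the P54 level at P59, and was lower at P59 on every one of its 8 probe sets, none of which passed the adjusted threshold. Pmp22 had near-equal group means. Mal and Ngfr were lower on average and Ncam1 higher, with overlapping arrays.

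In limma's fit over the 10916 genes above the intensity filter (mean log2 intensity over 6.58), 0 of the 5 tested members passed an adjusted p of 0.05, against 0.0183% of all genes tested. The count at an unadjusted p under 0.05 was also 0 of 5, against 6.49% of all genes. Arrays of P59 and P54 were separate for 1 of 5 members, Mbp, which was lower at P59, as were 14.8% of all genes. None of the 5 was higher with separate groups, as 18.9% of all genes were, and 33.7% of all genes had separate groups in either direction. The median log2 difference of the 5, P59 minus P54, was -0.20, beside 0.05 for all genes tested, and it was -0.0737 without P54 replicate 1. The 4 arrays can be split into pairs in only 3 ways, so no exact permutation test could reach 0.05. P59 replicate 2 stood apart from the other arrays on the first principal component (score 35.4 against -22.5 to -4.33), and its Spearman correlation with them across genes was 0.915 to 0.938, against 0.953 to 0.976 among the other 3. With all arrays 3 of the 5 members were lower at P59, as were 4540 of all 10916 genes tested. Without P59 replicate 2, 4 of the 5 members were lower. The share of all genes without that array is not given here.

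Mbp, the basic protein that draws the cytoplasmic faces of the myelin membrane together, had log2 intensities of 10.78 and 10.50 in P59 replicates 1 and 2, against 11.51 and 10.84 in P54 replicates 1 and 2. Both P59 arrays were below both P54 arrays, with P59 replicate 1 and P54 replicate 2 close to each other. The means were 10.64 ± 0.19 at P59 and 11.17 ± 0.48 at P54 (SD, n = 2 each), a difference of -0.54 (SE 0.27, 95% interval -1.14 to 0.07, limma adjusted p = 0.834). Without P54 replicate 1, the highest array, the difference was -0.20, and without P54 replicate 2 it was -0.87. In whole skin, fewer cells of a type and less RNA per cell cannot be told apart.

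**Figure D1:**
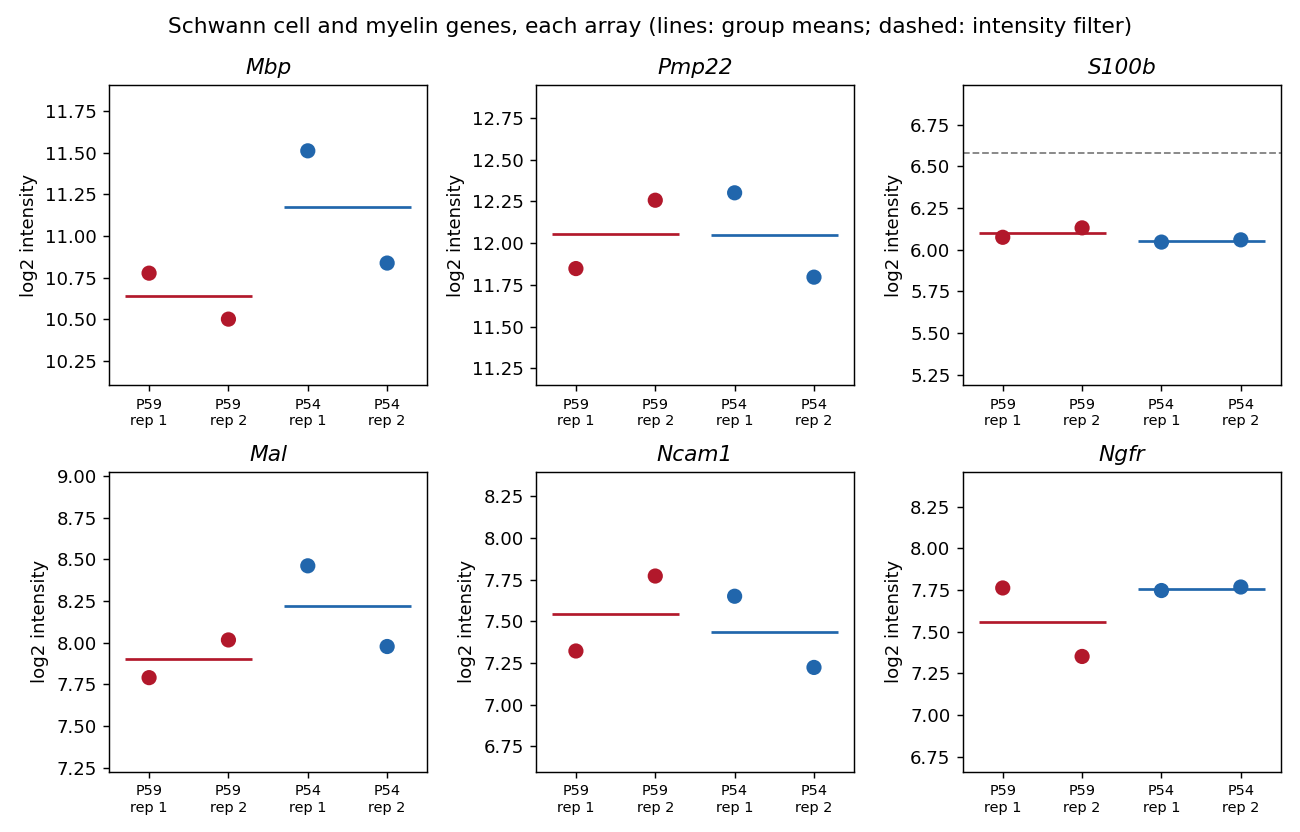
Log2 intensity (vertical axis) of the 6 measured genes on each array, P59 in red and P54 in blue, with group means as lines; every panel spans the same range of log2 units. The Mbp arrays of P59 (10.78 and 10.50) lie below those of P54 (11.51 and 10.84), those of Pmp22, Mal, Ncam1 and Ngfr overlap, and S100b lies below the intensity filter (dashed).

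Mbp is the member read by most probe sets. All 8 had a negative difference, where 42.3% of all 34958 single-gene probe sets did, and the differences ran from -1.496 to -0.28. The P59 and P54 arrays did not overlap for 6 of the 8, against 13.9% of all probe sets in that direction. In a limma fit over all single-gene probe sets 2 of the 8 had an unadjusted p under 0.05 (2.34% of all probe sets were lower at that limit), and the 8 adjusted p-values lay between 0.902 and 0.905. Probe sets of 1 gene read the same RNA and are not replicates. Sets whose names end in _x_at or _s_at, as some of these do, may also bind transcripts of other genes. The 2 sets at an unadjusted p under 0.05 in limma both have names that end in _x_at. The locus also makes the longer golli transcripts, and which transcripts each set reads was not examined.

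The largest of these differences came from a set at 7.37 and 5.46 in P59 replicates 1 and 2 and at 7.93 and 7.90 in P54 replicates 1 and 2. P59 replicate 2 alone was far below the others there. Another set had 9.05 and 9.10 at P59 and 9.84 and 9.64 at P54, a difference of -0.67 with close replicates in both groups. It was picked after its values were seen, and its name ends in _x_at. P54 replicate 1 was the highest array on 6 of the 8 sets and P59 replicate 2 the lowest on 4.

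**Figure D2:**
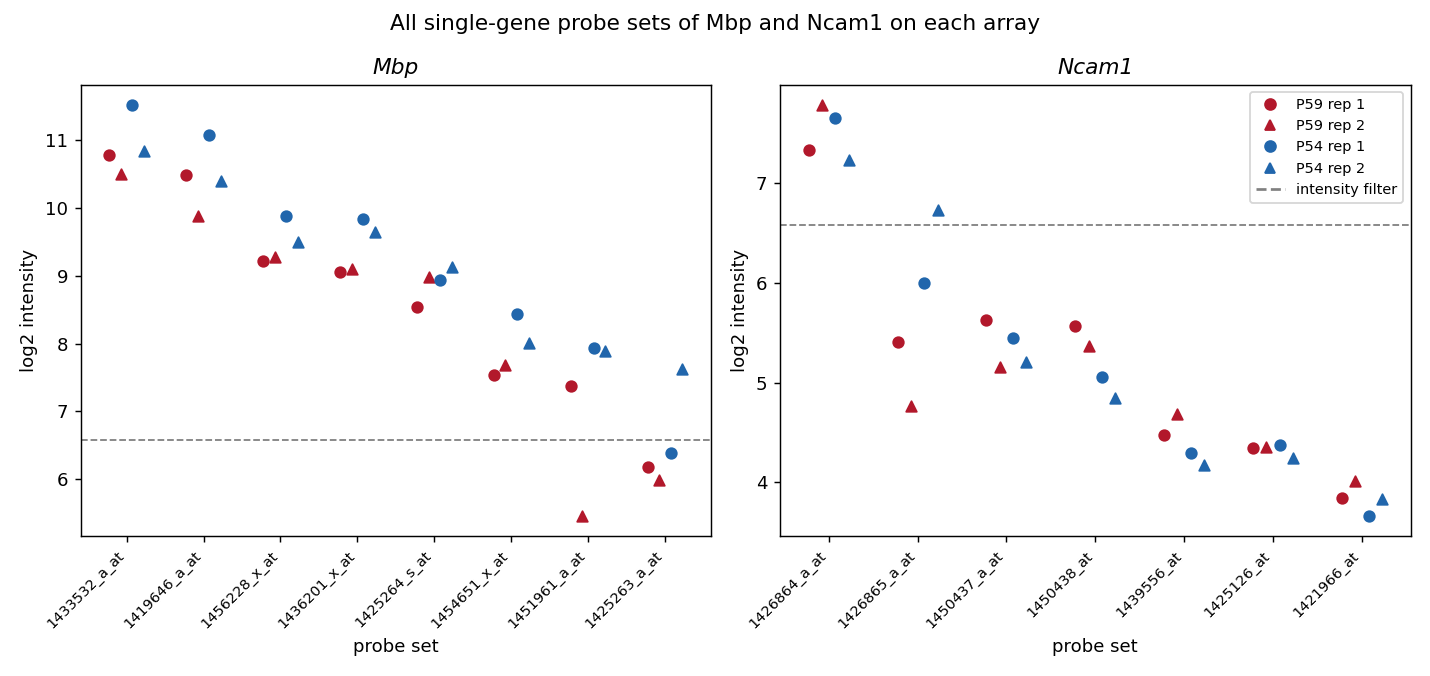
Log2 intensity (vertical axis) of every single-gene probe set of Mbp (8 sets) and Ncam1 (7 sets) on each array, P59 in red, P54 in blue, replicate 1 as circles and replicate 2 as triangles. The Mbp sets all have a lower P59 mean, while 1 Ncam1 set is above the intensity filter of 6.58 on average. The next brightest Ncam1 set runs opposite to it and is the only 1 of the 7 with a lower P59 mean.

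Pmp22, a tetraspan protein of compact myelin whose duplication or deletion causes inherited neuropathies in humans, had log2 intensities of 11.85 and 12.26 at P59, against 12.30 and 11.80 at P54. The highest and the lowest array were both of P54, and the P59 arrays lay between them. Group means were 12.05 ± 0.29 at P59 and 12.05 ± 0.36 at P54 (SD, n = 2 each), and the 95% interval of the difference, -0.58 to 0.59, spans ratios of P59 to P54 from 0.667 to 1.51 (limma adjusted p = 0.9999). The sign of the difference turned with the array left out, between -0.25 and 0.26.

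Mal, a lipid-raft protein of myelin and of epithelial apical membranes, was at 7.79 and 8.02 at P59, against 8.46 and 7.98 at P54. P54 replicate 2 fell between the P59 arrays. The difference was -0.32 (SE 0.25, 95% interval -0.87 to 0.24, limma adjusted p = 0.926), and a second probe set differed by -0.43. Without P54 replicate 1 the difference of Mal was -0.07, and without P54 replicate 2 it was -0.56.

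S100b, the calcium-binding protein widely stained as a marker of Schwann cells, had log2 intensities of 6.07 and 6.13 at P59 and 6.05 and 6.06 at P54. These are below the intensity filter, so S100b was not tested. Its 4 arrays spanned 0.09, and its second probe set, also below the filter, differed by 0.06.

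Ncam1, an adhesion molecule of the immunoglobulin family kept by non-myelinating Schwann cells, was at 7.32 and 7.77 at P59, against 7.65 and 7.22 at P54. The arrays of the groups alternated in order. The difference was 0.11 (SE 0.26, 95% interval -0.47 to 0.69, limma adjusted p = 0.979), and it was -0.10 without P54 replicate 2 and -0.11 without P59 replicate 2. Of its 7 probe sets 1 passed the filter level. The next brightest set, below the filter on average, had 5.41 and 4.76 at P59 and 5.998 and 6.73 at P54, a difference of -1.28 (limma adjusted p = 0.902 over all probe sets). It shares its source sequence in the annotation with the set used, and the 2 sets ran in opposite directions. It was the only 1 of the 7 sets with a lower mean at P59, and the other 6 were higher. Of all single-gene probe sets 42.3% were lower at P59.

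Ngfr, the p75 receptor that binds all neurotrophins, was at 7.76 and 7.35 at P59, against 7.75 and 7.77 at P54. The P54 arrays and P59 replicate 1 lay within a narrow band, and P59 replicate 2 lay below it. The difference of -0.20 (SE 0.24, 95% interval -0.73 to 0.33, limma adjusted p = 0.953) was 0.005 without P59 replicate 2. The other 2 probe sets of Ngfr, both below the filter, differed by -0.08 and -0.21.

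The members did not order the arrays alike. P54 replicate 1 held the highest level of 3 of the 5 tested members (Mbp, Pmp22 and Mal), P54 replicate 2 that of Ngfr and P59 replicate 2 that of Ncam1. P59 replicate 2 held the lowest level of Mbp and Ngfr, P54 replicate 2 that of Pmp22 and Ncam1, and P59 replicate 1 that of Mal. Mbp had the widest range over the 4 arrays, 1.01 log2 units. The tested genes whose centred profile over the 4 arrays was nearest to that of Mbp were Ppp1r14a, Glb1l2 and Fam167a, with root mean square differences of 0.05, 0.07 and 0.07 log2 units. They are given as a description over 4 arrays.

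Beside the members, 18 genes of myelin proteins and of junctions between Schwann cells and axons were listed, of which 15 were measured and 7 passed the filter. Among the 7, 5 were lower and 2 higher at P59, with a median of -0.27, and 0 passed an adjusted or an unadjusted p of 0.05 in limma. The groups did not overlap for 4 of the 7, all lower at P59, where 14.8% of all genes were lower in that way. Without P59 replicate 2 all 7 were lower, with no share of all genes given for that run. With the filter at the 60th percentile the median was -0.01. Cadm4, an adhesion molecule that Schwann cells use to bind axons, had 7.82 and 6.49 at P59 and 7.94 and 7.99 at P54, a difference of -0.81 (limma adjusted p = 0.774). P59 replicate 2 was far below the other arrays. Drp2, a dystrophin-related protein that binds periaxin in the Schwann cell membrane, had 7.11 and 7.21 at P59 and 7.43 and 7.46 at P54. Its arrays did not overlap between groups, and the difference was -0.29 (limma adjusted p = 0.921). Plekha4 differed by -0.43 (limma adjusted p = 0.864), and Cnp, an enzyme of non-compact myelin, by -0.08 (limma adjusted p = 0.984). Mag, the myelin-associated glycoprotein gene, lay below the filter at 6.29 and 6.54 at P59 and 6.65 and 6.79 at P54.

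**Figure D3:**
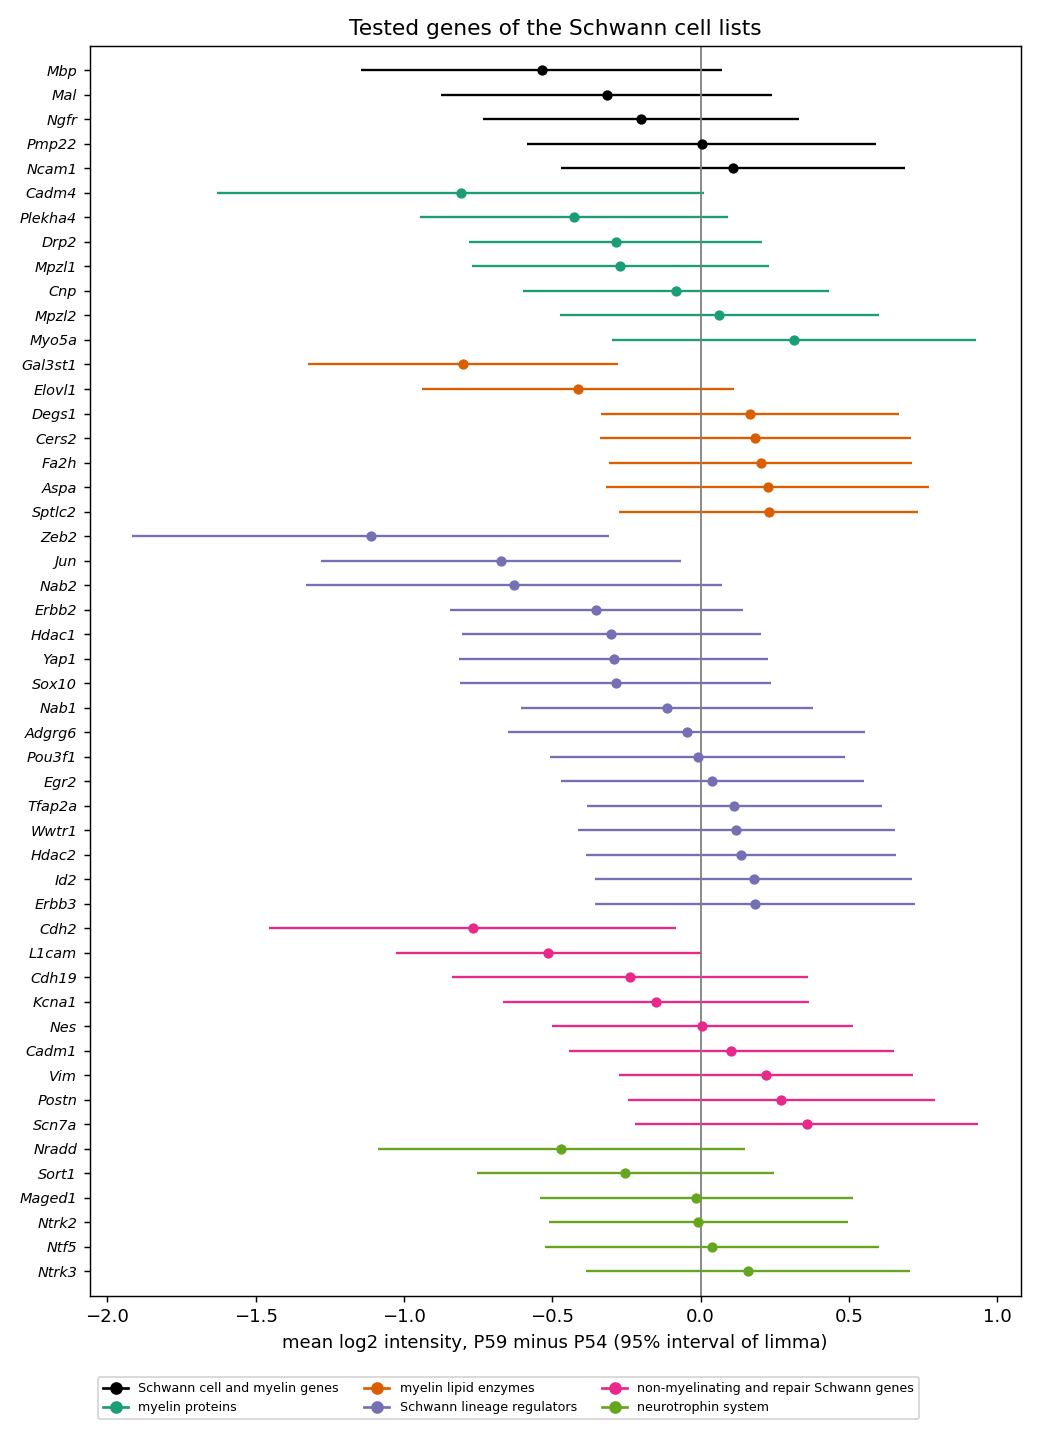
Difference of mean log2 intensity, P59 minus P54 (horizontal axis), with limma's 95% interval, for the tested members and the tested genes of 5 further lists, each in its own colour (paralogs and partners are not drawn). The intervals of all 5 members, drawn in black at the top, include 0; of the genes drawn, those of Gal3st1, Zeb2, Jun and Cdh2 lie below 0 before adjustment for the number of genes.

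Enzymes of myelin lipids had a median of 0.19 (0.0673 without P59 replicate 2 and 0.0721 when probe sets were averaged). They were read in whole skin, and the cells that made their RNA were not identified. Of 7 tested genes 5 were higher and 2 lower, and 0 passed the adjusted threshold. Of the 8 listed only Ugt8a was below the filter on average, at 5.97 and 5.95 at P59 and 7.01 and 6.23 at P54. Gal3st1, which adds the sulphate to make sulfatide, had 7.15 and 7.15 at P59 and 7.77 and 8.13 at P54. Its P59 arrays were nearly equal and both below the P54 arrays, with a difference of -0.80 (SE 0.24, limma adjusted p = 0.492). It was the only one of the 7 at an unadjusted p under 0.05, a limit that 3.01% of all genes met in this direction. Elovl1, an elongase of very long fatty acids that the epidermis uses as well, differed by -0.41 (limma adjusted p = 0.870), and Sptlc2, of the first step of sphingolipid synthesis, by 0.23 (limma adjusted p = 0.948).

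Among regulators of the Schwann lineage 10 of 16 tested genes were lower and 6 higher, with a median of -0.08 (-0.28 with the mean of all probe sets). In limma 0 passed the adjusted threshold and 2 were lower at an unadjusted p under 0.05, against 3.01% of all genes. These were Zeb2, a repressor that Schwann cells need in order to myelinate, and Jun, which drives the repair state after nerve injury. Zeb2 had 8.16 and 7.86 at P59 and 8.49 and 9.75 at P54, a difference of -1.11 (limma adjusted p = 0.547), and P54 replicate 2 was far above the other arrays. Jun had 9.81 and 9.78 at P59 and 10.83 and 10.10 at P54, a difference of -0.67 (limma adjusted p = 0.723). Nab2, a corepressor of EGR factors, differed by -0.63 (limma adjusted p = 0.834). Sox10, the factor that defines the lineage and is shared with melanocytes, had 7.99 and 7.65 at P59 and 8.18 and 8.03 at P54. Its arrays did not overlap, and the difference was -0.29 (SE 0.24, limma adjusted p = 0.934). Egr2, the master factor of myelination, differed by 0.04 (limma adjusted p = 0.999) and the neuregulin receptor gene Erbb3 by 0.18 (limma adjusted p = 0.957).

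Genes of non-myelinating and repair Schwann cells had a median of 0.006 (-0.24 with the mean of all probe sets), with 5 of 9 tested genes higher and 4 lower. The count past the adjusted threshold was 0, and 1 of the 9 was lower at an unadjusted p under 0.05 in limma, against 3.01% of all genes. That gene, Cdh2, which encodes N-cadherin, had 6.11 and 7.09 at P59 and 7.36 and 7.37 at P54 (difference -0.77, limma adjusted p = 0.717), with P59 replicate 1 far below the rest. L1cam, an adhesion molecule of axons and of non-myelinating Schwann cells, had 8.26 and 8.52 at P59 and 8.82 and 8.99 at P54. Its arrays did not overlap, and the difference was -0.51 (SE 0.23, limma adjusted p = 0.771). Scn7a, a sodium channel of non-myelinating Schwann cells, differed by 0.36 (limma adjusted p = 0.917) and Postn, a matrix protein made by fibroblasts too, by 0.27 (limma adjusted p = 0.937). Gfap lay below the filter on all 4 arrays, between 5.40 and 5.90.

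In the neurotrophin system around Ngfr 4 of 6 tested genes were lower and 2 higher, with a median of -0.01 (-0.18 when probe sets were averaged) and 0 genes at an adjusted or unadjusted p under 0.05 in limma. The receptor kinase genes Ntrk2 and Ntrk3 differed by -0.01 and 0.16 (limma adjusted p = 0.9995 and 0.966), and the ligand gene Ntf5 by 0.04 (limma adjusted p = 0.999). Sort1, the sortilin coreceptor of p75, had 9.44 and 9.25 at P59 and 9.61 and 9.58 at P54, a difference of -0.25 (limma adjusted p = 0.941). Nradd, a relative of p75, differed by -0.47 (limma adjusted p = 0.875).

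Paralogs and binding partners of the members had a median of 0.03 (-0.10 with the mean of all probe sets), with 8 of 15 tested genes higher and 7 lower and 0 past the adjusted threshold in limma. At an unadjusted p under 0.05 there was 1 higher gene (3.47% of all genes) and 2 lower ones (3.01% of all genes). Lama2, the laminin chain of the Schwann cell and muscle basement membrane, was at 9.90 and 10.46 at P59 and 9.43 and 9.36 at P54 (difference 0.79, limma adjusted p = 0.547). Both P59 arrays were above both P54 arrays. Itgb4, an integrin of Schwann cells and of hemidesmosomes, differed by -0.87 (limma adjusted p = 0.649) and the Mal relative Mall by -0.62 (limma adjusted p = 0.764).

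Markers of other cells were set beside these values. Of 9 measured axon markers 8 were below the filter, and the neurofilament genes Nefl and Nefm, at 3.47 to 3.62 and 3.19 to 3.42, were near the bottom of the scale. Summed over 8 keratinocyte markers, all 8 of which were lower at P59, intensity was 68110 to 69430 at P59 and 80280 to 85190 at P54, and Krt14 differed by -0.24. Over 8 adipocyte markers, 7 of them lower, the sum was 13970 to 15460 at P59 and 17210 to 19120 at P54, and Adipoq differed by -0.44. The part of these cells in the lower Mbp level was not tested.

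The sum over 10 endothelial markers, 8 of them lower, was 2817 to 3110 at P59 and 3037 to 3372 at P54, with Pecam1 differing by -0.29. The 6 tested melanocyte markers, 4 of them higher, summed to 2830 to 3190 at P59 and 2076 to 2110 at P54, while Dct differed by -0.36 and Tyrp1 by 0.55. The widest differences there, named after their values were seen, were those of Mlana (1.19, limma adjusted p = 0.516) and Gpnmb (0.84, limma adjusted p = 0.424). Gpnmb, the brightest of the 6, was at 10.51 and 10.51 at P59 and at 9.59 and 9.75 at P54. It weighs most in the sum, so the separate sums do not describe the 6 genes alike. Mlana was at 7.71 and 9.05 in P59 replicates 1 and 2 and at 7.31 and 7.06 in P54 replicates 1 and 2. Muscle markers, 5 of 11 higher, summed to 121300 to 167300 at P59 and 128000 to 160800 at P54, with differences of -0.002 for Acta1 and -0.36 for Ckm. The 8 tested fibroblast and dermal papilla markers were higher in 6 and lower in 2, and summed to 68960 to 72090 at P59 and 68110 to 71510 at P54, a sum in which bright genes such as Col1a1 (difference 0.03) weigh most. Among them, named after their values were seen, Crabp1 differed by -1.12 (limma adjusted p = 0.452) and Pdgfra by 0.64 (limma adjusted p = 0.648). Langerhans and macrophage markers were higher in 7 of 8, and summed to 11870 to 13040 at P59 and 10090 to 11750 at P54. The list of growing follicle and proliferation markers had the widest median difference, 1.71, with all 7 tested genes higher at P59. Its proliferation genes barely differed, Mki67 by 0.11 (limma adjusted p = 0.973) and Top2a by 0.01 (limma adjusted p = 0.999). Sums over the 7 were 10220 and 2368 in P59 replicates 1 and 2, against 1243 and 932.1 in P54 replicates 1 and 2. Krt25, a keratin of the inner root sheath, was at 11.64 and 9.09 at P59 and at 7.21 and 4.49 at P54. P59 replicate 1 was far above the other arrays for Krt25, Krt71, Tchh and Krt31, but not for Mki67, Top2a or Lef1. The part of these markers in the values of the Schwann genes was not tested. Sums overlapped between the 2 groups for the muscle, fibroblast and endothelial lists and for the 5 Schwann members. The sums of the members were 6039 and 6987 at P59 and 8737 and 6006 at P54. Pmp22, the brightest of the 5, weighs most in them, while the Mbp arrays alone did not overlap.

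**Figure D4:**
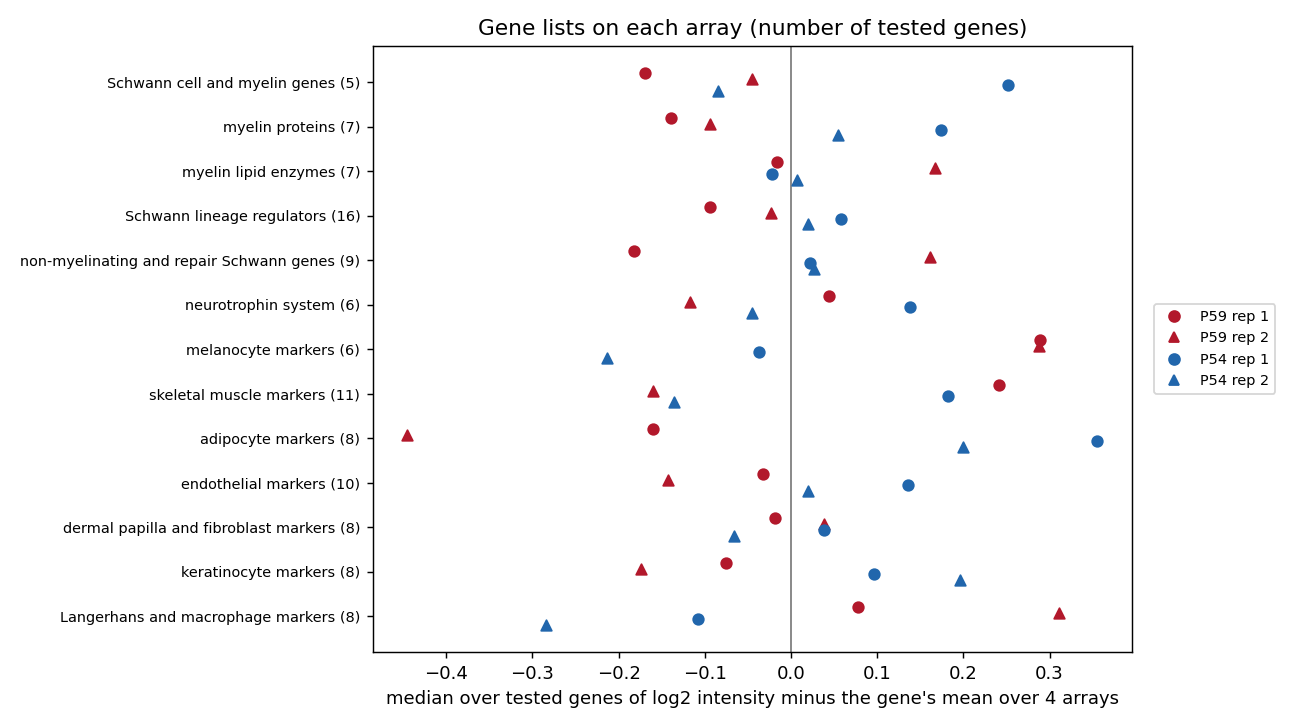
Median over the tested genes of each list of log2 intensity minus the gene's own mean over the 4 arrays (horizontal axis), P59 in red, P54 in blue, replicate 1 as circles and replicate 2 as triangles. P54 replicate 1 is highest for the Schwann cell and myelin genes (0.25) and the myelin proteins (0.17), and the other 3 arrays lie between -0.17 and -0.04 for the Schwann cell and myelin genes.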

How the data were processed

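The deposited values are intensity readings of 45101 probe sets on 4 Affymetrix arrays, put together by the authors in 1 table. The scale was taken as linear from the range of the values, since no header or label states it. The submitters' processing notes name RMA and Affymetrix Expression Console, with versions not given in the sources used here. Array medians were 67.2 and 64.7 at P59 and 66.9 and 69.3 at P54. RMA scales arrays toward a common distribution, though the medians of the deposited values were not equal. Values are thus relative to the whole array, and dim sets are compressed toward background. The number of arrays, 2 per group, limits the precision.

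Values were taken to log2 with no pseudocount. GEO's platform annotation gave 34958 sets 1 gene symbol, 932 several and 9211 none. Sets with 1 symbol were used, names were matched to RefSeq by Entrez identifier (34754 sets), and the set with the highest mean stood for a gene. Genes whose mean log2 intensity exceeded the 40th percentile were tested with lmFit and eBayes in limma 3.58.1 (R 4.3.3), with Benjamini-Hochberg adjustment over all of them. The procedure was tested on simulated data.

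The members and lists were chosen with earlier results of these data known. Lists were described by counts and medians. The genes named were the members, a fixed set of lineage and cell markers, and up to 3 further genes of each Schwann list with the smallest p. Other cell markers, Krt25 among them, and Ugt8a were named after their values were seen. Alternatives changed the filter, the probe set rule, the scaling, the variance prior, the pseudocount, the arrays and the replicate block. Counts without P59 replicate 2 were added after the data were seen.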

Additional observations from a re-analysis of the deposited data

How the results depend on the processing

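No member passed the adjusted threshold in any alternative run (lowest limma adjusted p = 0.283, for Mbp without P59 replicate 1). The direction of Mbp and of Mal held in every alternative. Leaving out 1 array at a time, the difference ranged from -0.87 to -0.20 for Mbp, -0.56 to -0.07 for Mal, -0.25 to 0.26 for Pmp22, -0.11 to 0.33 for Ncam1, -0.41 to 0.0048 for Ngfr and 0.02 to 0.08 for S100b. Pmp22 turned to -0.0298 after quantile normalization again, and Ncam1 to -1.28 with its next brightest probe set, the only 1 of its 7 sets that was lower. S100b differed by 0.10 after quantile normalization again and 0.10 with arrays centred on their medians. The number of genes past the adjusted threshold over all genes, 2 as reported, was 0 without the filter, with the filter at the 60th percentile, with the mean of all probe sets, after quantile normalization again and with a pseudocount of 32 (458 to 1122 at an unadjusted p under 0.05 in limma). It was 47 with arrays centred on their medians and 29 to 401 with 1 array left out. With the replicate block it was 155, and no member changed its call. Deviations of same-numbered arrays had a correlation of -0.04 across genes. This value gives no sign of a pairing over all genes, but it cannot exclude effects shared by replicate number in some genes. The median of the myelin proteins was -0.083 without the filter, -0.0103 at the 60th percentile and -0.18 with the mean of all probe sets. With that mean it was 0.0721 for lipid enzymes, -0.28 for lineage regulators, -0.24 for non-myelinating and repair genes, -0.18 for the neurotrophin system and -0.10 for paralogs and partners. The regulators had -0.0331 with arrays centred on their medians. With 1 array left out the medians ranged over -0.25 to -0.07 for the members, -0.27 to -0.19 for myelin proteins, 0.0673 to 0.27 for lipid enzymes, -0.12 to -0.0667 for regulators, -0.13 to 0.11 for non-myelinating and repair genes, -0.18 to 0.0833 for the neurotrophin system and -0.10 to 0.0724 for paralogs and partners. The causes were not tested.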
